A study of Mus musculus with 4 samples.

Results

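The cytosolic ribosomal protein genes encode the protein part of the ribosome that works in the cytoplasm. They were taken by symbol from the mm10 annotation, as protein-coding genes named Rpl or Rps with a number, with Rplp0, Rplp1, Rplp2 and Rpsa, and without the Rps6k kinases and the pseudogenes. This rule gave 84 of 21951 protein-coding genes, of which 52 carry a large subunit name and 32 a small subunit name, and 7 are paralogs with an l after the number. The rule used no measured value.

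RNA polymerase II (Pol II) was mapped by ChIP-seq in brain endothelial cells (ECs) of mice, in 2 libraries from old WT Cre mice and 2 from young EC-K4KO mice, each from 200000 sorted cells according to the methods. The old WT Cre mice (20 to 23 mo) carried the tamoxifen-inducible CDH5-CreERT2 transgene alone, and the young EC-K4KO mice (4 to 6 mo) carried it with floxed Klf4 alleles, on a C57BL/6J background, with induction at 8 wk of age in both. The CDH5 promoter drives Cre in ECs of every vascular bed, so the deletion was not limited to the brain. Age and genotype changed together and cannot be told apart here. Whether the replicates are separate animals or pools is not given in the sources used here, so p-values measure only the spread between these libraries.

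Each ribosome carries a copy of most of these proteins, and their genes are strongly transcribed in most cells. Most are short, begin with a tract of pyrimidines at the transcription start site (TSS) that puts their mRNAs under translational control by mTORC1 (terminal oligopyrimidine or TOP mRNAs), and many carry small nucleolar RNA (snoRNA) genes in their introns. The large subunit holds the peptidyl transferase centre and the stalk of P proteins that recruits the translation factors, and the small subunit holds the decoding site.

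The sequence around the start was examined in the RefSeq promoter windows (GRCm38.p6, 250 bases before to 50 after the start), which held 64 of the 84 genes. In 30 of the 64 (46.9%) a run of at least 8 pyrimidines (C or T) lay on the coding strand within 20 bases of the start, against 18.4% of the 16522 coding genes with a window. The letters CCGGAAG, the core bound by ETS factors, occurred on either strand in 26 of the 64 windows (40.6%) and in 13.4% of all. TATAAA occurred in 10.9% and 14.3%, CCAAT in 31.2% and 42.1%, and AAGATGGC, the core of the YY1 site, in 9.38% and 3.64%, and the GC content had a median of 57.0% in both sets. Windows of 80 bases, from 60 before to 20 after the RefSeq start, are given for 6 genes on which the results below turn, with the pyrimidine run in capitals where it reached 8 letters. Peak positions are counted from GENCODE TSSs, and the RefSeq start lay 45, 8, 16 and 29 bp from the nearest of these at Rps6, Rps12, Rpl36al and Rps3 and 0 bp at Rps27l and Rplp0. Rps6 and Rps27l had TSS peaks in 3 libraries, Rps12 in both young EC-K4KO libraries alone, Rpl36al in all 4, and Rplp0 and Rps3 in none.
Rps6: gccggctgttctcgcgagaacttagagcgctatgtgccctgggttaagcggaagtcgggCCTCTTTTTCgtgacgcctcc
Rps27l: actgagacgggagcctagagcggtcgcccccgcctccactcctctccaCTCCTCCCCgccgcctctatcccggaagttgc
Rps12: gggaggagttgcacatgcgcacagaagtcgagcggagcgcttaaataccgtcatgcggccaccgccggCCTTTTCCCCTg
Rpl36al: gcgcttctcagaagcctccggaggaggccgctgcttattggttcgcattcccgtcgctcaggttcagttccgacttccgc
Rplp0: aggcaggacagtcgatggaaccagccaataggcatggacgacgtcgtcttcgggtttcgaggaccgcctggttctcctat
Rps3: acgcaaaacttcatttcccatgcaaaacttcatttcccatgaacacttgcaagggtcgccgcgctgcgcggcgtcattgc
They lie at chr4:86857348-86857427 (minus strand), chr9:66946026-66946105 (plus), chr10:23787190-23787269 (minus), chr12:69184048-69184127 (minus), chr5:115559407-115559486 (plus) and chr7:99483690-99483769 (minus). The Rps6 window shows a run of 10 pyrimidines at the RefSeq start and the Rps12 window a run of 11 just after it. Within 20 bases of the RefSeq start, the longest run at Rpl36al, Rplp0 and Rps3 was 5, 7 and 3 letters. At Rps6 and Rps3 the nearest GENCODE TSS lay outside the bases searched.

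A peak was counted at a gene when it overlapped the 1500 bp on either side of one of its annotated TSSs, and its height is the pileup at the summit, given in FPM (fragments stacked there for every 1000000 fragments of the library). Where several peaks overlapped the window the tallest was taken, its summit may lie outside the window, and positions are from the nearest annotated TSS. Replicates 1 and 2 are called the first and the second library of their group, and values of all 4 libraries are given with old WT Cre before young EC-K4KO. They held 65734178, 27455452, 35227929 and 22705175 fragments, and the smallest pileup called was 0.198, 0.291, 0.255 and 0.308 FPM. A gene without a peak is one whose signal stayed below what the caller reported, and Pol II may still be present there. The second young EC-K4KO library stood apart, with 235591 peaks from the fewest fragments against 35638 to 78851 in the others. Of 12 brain EC markers 4, 5, 0 and 5 had a TSS peak (33.3%, 41.7%, 0% and 41.7%), and 6 of them (Tek, Tie1, Slco1a4, Esam, Pecam1 and Ly6c1) had none in any library. Of 5 neuronal markers 0, 1, 1 and 4 had one, of 4 astrocyte markers 2, 0, 0 and 2, of 4 microglial markers 2, 0, 0 and 3, of 4 oligodendrocyte markers 0, 1, 0 and 3, and of 4 pericyte markers 1, 0, 1 and 2. Summed over the 21 markers of other cells, 5, 2, 2 and 14 had a TSS peak (23.8%, 9.52%, 9.52% and 66.7%), beside 25.6%, 24.5%, 10.6% and 67.5% of all coding genes. In the second young EC-K4KO library the markers of other cells thus stood near the background and the EC markers below it, and the part of other cells in the results was not tested. At Klf4, the gene targeted in the mice labelled young EC-K4KO, those libraries had TSS peaks of 0.426 and 0.881 FPM, with summits at -995 bp and, inside the gene, at 1198 bp, and the old WT Cre libraries had none. These values do not show the loss that the label names. A called peak measures neither the transcript nor the alleles, so the genotype could not be checked here and groups are named as labelled.

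Ribosomal protein genes held a called TSS peak in a minority of genes in 3 of the libraries and in most genes in the other. In the first old WT Cre library, 25 of the 84 had one (29.8%, 95% exact Clopper-Pearson interval 20.3 to 40.7), against 25.6% of all protein-coding genes. In the second old WT Cre library the count was 31 (36.9%, 26.6 to 48.1), against 24.5%. The first young EC-K4KO library had 8 (9.52%, 4.20 to 17.9), against 10.6%, and the second young EC-K4KO library had 71 (84.5%, 75.0 to 91.5), against 67.5%. These intervals cover counting error only. The share was thus close to or above that of all coding genes in each library, and the young EC-K4KO libraries lay on either side of both old WT Cre replicates. The group means, with old WT Cre as the control group, were 33.3% ± 5.05 (SD, n = 2) in the controls and 47.0% ± 53.0 in the young EC-K4KO mice, and the difference was 13.7 percentage points (two-sided exact permutation test, p = 1). With 2 libraries in each group this test cannot reach a p under 0.33. The difference turned to -23.8 points when the second young EC-K4KO library was left out. When each list was cut to its 35638 peaks of lowest q, the number in the shortest list, the shares were 11.9%, 33.3%, 9.52% and 44.0% and the difference was 4.17 points. The shares were 16.7%, 20.2%, 5.95% and 75.0% at a q of at most 1e-05. At a fold enrichment of at least 4 they were 11.9%, 32.1%, 7.14% and 75.0%, and with a window of 500 bp 20.2%, 32.1%, 9.52% and 79.8%.

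**Figure D1:**
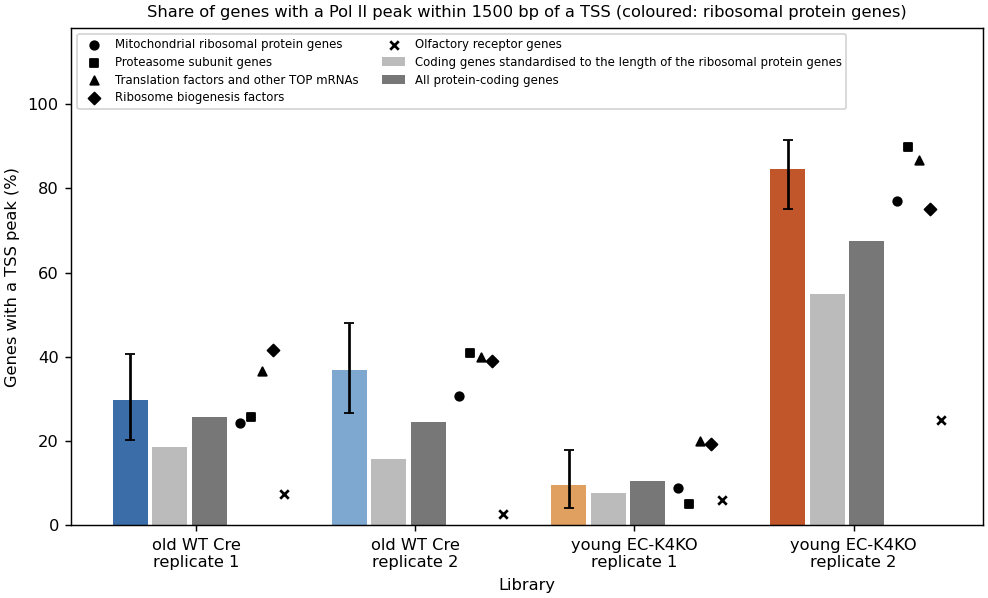
Share of genes (%) with a Pol II peak within 1500 bp of a TSS in each library, for the 84 ribosomal protein genes (coloured bars, with the 95% exact interval), for coding genes standardised to their lengths, for all protein-coding genes and for 5 other gene lists (symbols). The coloured bar stands above the light grey bar in each library, by the smallest ratio in the first young EC-K4KO library (1.24).

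These genes are short, with a median length of 3328 bp against 17403 bp for all coding genes, and short genes had fewer TSS peaks. When the share of the other coding genes was taken within 10 classes of gene length and weighted to the lengths of the ribosomal protein genes, it was 18.6%, 15.7%, 7.69% and 54.9% in the 4 libraries. The share of the ribosomal protein genes was 1.60, 2.35, 1.24 and 1.54 times that value. The means of this ratio were 1.97 ± 0.529 (SD, n = 2) in the controls and 1.39 ± 0.213 in the young EC-K4KO mice, a difference of -0.583 with no overlap between the groups (two-sided exact permutation p = 0.33, the smallest possible). The groups overlapped in 7 of 11 alternatives that kept all 4 libraries, and the difference was 0.0476 at a q of at most 1e-05, so neither the separation nor the direction held throughout. It was -0.0417 with lists of equal length (ratios of 1.47, 2.29, 1.24 and 2.44), -0.279 with a window of 500 bp, -0.331 at a fold enrichment of at least 4 and -0.262 against all coding genes without standardisation. In the first young EC-K4KO library the ratio was 0.664 when the 45 genes with another annotated TSS within 1500 bp were left out.

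**Figure D2:**
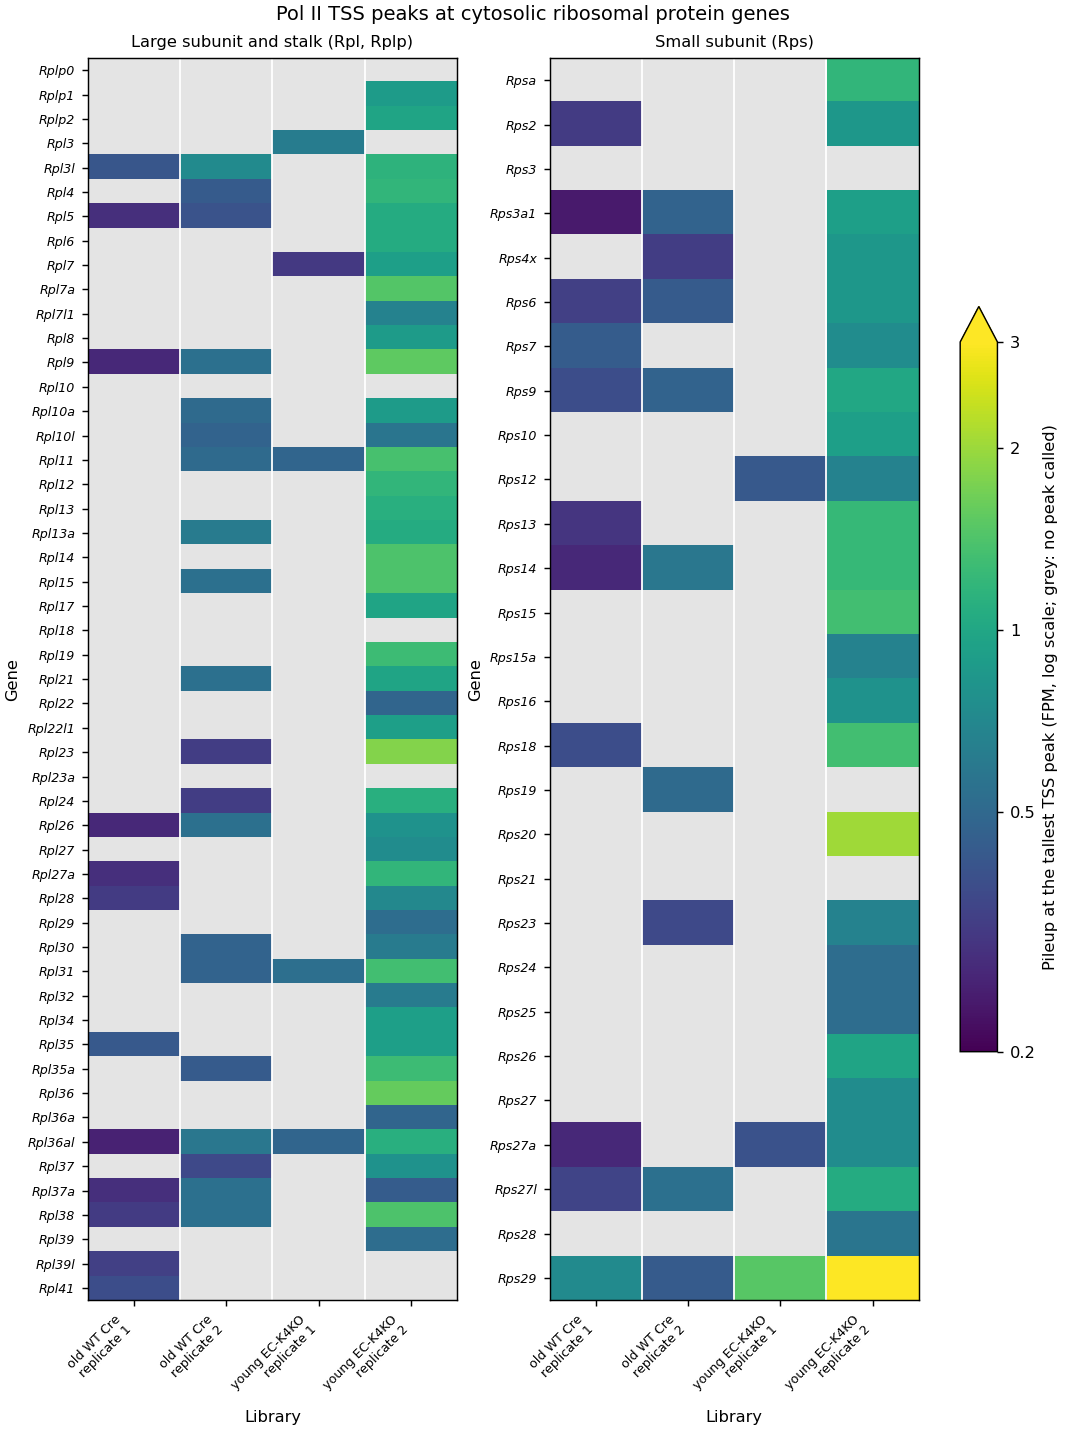
Pileup at the tallest TSS peak of 79 of the 84 ribosomal protein genes (rows) in the 4 libraries (columns), in FPM on a log colour scale, with grey where no peak was called. The second young EC-K4KO library is coloured in 69 rows and the first young EC-K4KO library in 8, and Rps29 in the second young EC-K4KO library (58.8 FPM) lies beyond the scale.

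A peak was called in no library at 7 genes, in 1 library at 37, in 2 at 24, in 3 at 14 and in all 4 at 2. The 37, 24 and 14 genes make 44.0%, 28.6% and 16.7% of the members, beside 36.2%, 25.2% and 10.9% of all coding genes. Both old WT Cre libraries had a peak at 14 genes (16.7%, against 10.1% of all coding genes), and both young EC-K4KO libraries at 7 (8.33%, against 9.14%). The 2 genes with a peak in all 4 libraries make 2.38%, close to 2.22% of all coding genes. The 7 genes with none make 8.33%, against 25.4% of all coding genes. Rpl7 and Rps12 were called in both libraries of young EC-K4KO and in no old WT Cre library (2.38%, against 3.12%), and 1 member had the opposite pattern (1.19%, against 0.784%). Shares of the one-group patterns were therefore near the background, with 2 genes and 1 gene behind them. Leaving out the second young EC-K4KO library raised the genes with peaks in old WT Cre alone from 1 to 12 (14.3%, beside 7.78% of all coding genes), and leaving out the first young EC-K4KO library raised those in young EC-K4KO alone from 2 to 34 (40.5%, beside 33.7%).

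Among genes called in both old WT Cre libraries, the peaks of the replicates themselves overlapped at 6 of 14, namely Rps3a1, Rps6, Rpl9, Rps27l, Rpl26 and Rpl36al, against 60.4% of 2218 coding genes called in both. In the young EC-K4KO libraries they overlapped at 6 of 7, at Rpl31, Rpl11, Rps12, Rps27a, Rps29 and Rpl36al, against 66.6% of 2006. The 14 genes make 56.0% of the members called in the first old WT Cre library and 45.2% of those in the second, beside 39.5% and 41.3% for all coding genes. The 7 make 87.5% and 9.86% of the members called for young EC-K4KO, beside 85.8% and 13.5%. The second young EC-K4KO library held 29 of the 31 genes called in the second old WT Cre library (93.5%, beside 88.4% for all coding genes), with overlapping peaks at 23 of the 29 (79.3%, beside 74.6%). It held 21 of the 25 called in the first old WT Cre library (84.0%, beside 83.7%), with overlap at 14 (66.7%, beside 64.6%). The first young EC-K4KO library held 3 of those 25 (beside 17.3%), with overlap at 3 of 3 (beside 51.7%), and 4 of the 31 called in the second old WT Cre library (12.9%, beside 18.3%), with overlap at 1 of 4 (beside 54.7%). At Rpl26 the summits of both old WT Cre peaks lay 120 bp into the gene, while at Rpl38 they lay at 461 bp and -970 bp (negative values are upstream of the nearest TSS). Rps3a1, Rpl9, Rpl26, Rpl31 and Rpl38 were chosen after their values were seen.

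Of the large subunit genes, 13, 20, 5 and 44 of 52 had a TSS peak in the 4 libraries, beside 25.6%, 24.5%, 10.6% and 67.5% of all coding genes. Rpl5 and Rpl11, which with 5S rRNA form the particle that binds Mdm2 under nucleolar stress, were each called in 3 libraries. Rpl11 had no peak in the first old WT Cre library, 0.510 FPM in the second, and 0.483 and 1.37 FPM for young EC-K4KO. Its summits lay 329, 342 and 163 bp into the gene. Rpl5 had 0.289 and 0.401 FPM in the old WT Cre libraries, none in the first young EC-K4KO library and 1.06 in the second. These genes therefore differed in which library lacked a peak, and in both the highest value came from the second young EC-K4KO library. The median over all coding genes called was also highest in that library, at 0.837 FPM. Rpl3, which reaches towards the peptidyl transferase centre, was called in the first young EC-K4KO library alone, at 0.625 FPM and 143 bp into the gene. Rpl7 had 0.312 and 0.925 FPM in the young EC-K4KO libraries, with summits at 472 and -289 bp, and these peaks did not overlap. Rpl18, Rpl23a and Rpl10 had no TSS peak in any library. Rpl10 is among the last proteins to join the large subunit, and its nearest summit in the second young EC-K4KO library lay 2530 bp away.

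Of the stalk genes, Rplp0, the base of the stalk, had no TSS peak in any library, with the nearest summits 2982, 16363, 137605 and 3906 bp from its TSS. Rplp1 and Rplp2, which bind to it in pairs, were called in the second young EC-K4KO library alone, at 0.881 FPM (113 bp into the gene) and 0.969 FPM (51 bp upstream, at -51). The lack of a peak at Rplp0 there was thus not shared by its partners.

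Of the small subunit genes, 12, 11, 3 and 27 of 32 had a TSS peak, beside 25.6%, 24.5%, 10.6% and 67.5% of all coding genes. Rps6, whose protein is the substrate of S6 kinase, had 0.335 and 0.437 FPM in the old WT Cre libraries, none in the first young EC-K4KO library and 0.837 in the second, with summits 191, 358 and 509 bp into the gene. Each of its summits thus lay downstream of the nearest TSS. Rpsa, also known as a laminin receptor, was called in the second young EC-K4KO library alone, at 1.19 FPM and 37 bp from the TSS. Rps27a, which is made as a fusion with ubiquitin, had 0.274 FPM in the first old WT Cre library, none in the second, and 0.397 and 0.749 FPM for young EC-K4KO. Rps12 had no old WT Cre peak, while its young EC-K4KO peaks reached 0.426 and 0.661 FPM, overlapped each other and had summits 17 and 44 bp into the gene, close to its start. Rps3, which lines the mRNA entry, and Rps21 had no TSS peak in any library, and the nearest summit to the Rps3 TSS was 10079, 30559, 9856 and 4294 bp away.

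Among the 7 paralogs, 4, 4, 1 and 6 had a TSS peak in the 4 libraries, beside 25.6%, 24.5%, 10.6% and 67.5% of all coding genes. Rps27l, the p53-responsive copy of Rps27, had 0.350 and 0.546 FPM in the old WT Cre libraries, none in the first young EC-K4KO library and 1.06 in the second. Its partner Rps27 was called in the second young EC-K4KO library alone, at 0.749. Rpl3l, the striated muscle copy of Rpl3, had 0.411, 0.728 and 1.15 FPM in the old WT Cre libraries and the second young EC-K4KO library. The summits of these tallest peaks lay at -1657, 957 and 907 bp, far from the TSS. In the second young EC-K4KO library 3 peaks overlapped its window, and the nearest summit lay 174 bp from the TSS. Rpl3l was the tallest of the 84 in the second old WT Cre library. Rpl10l, an intronless copy known from testis, had 0.473 and 0.573 FPM in the second old WT Cre library and the second young EC-K4KO library, although its X-linked parent Rpl10 had none. Rpl39l, also known from testis, was called in the first old WT Cre library alone (0.335), and Rpl22l1 and Rpl7l1 in the second young EC-K4KO library alone (0.925 and 0.661). Over the 7 pairs of copy and parent, the copy was called in more libraries in 4 (Rps27l, Rpl3l, Rpl10l and Rpl36al). It was called in as many in 2 (Rpl39l and Rpl22l1) and in fewer in 1 (Rpl7l1). This count takes any peak that overlaps the window. It thus includes the tallest Rpl3l peaks, far from the TSS, and Rpl36al peaks that can be assigned to Mgat2. A short read from a near-identical copy can also be placed on either, so these values are uncertain.

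Rpl36al had a peak in all 4 libraries, at 0.259, 0.583, 0.483 and 1.10 FPM. It is transcribed away from Mgat2, which encodes an N-glycan transferase and starts 74 bp upstream of it on the other strand. In 3 libraries the summit lay on the Mgat2 side, at -899, -434 and -761 bp from the Rpl36al TSS, or 825, 360 and 687 bp into Mgat2, and only in the first young EC-K4KO library did it lie inside Rpl36al, at 159 bp. The peaks at Rpl36al can therefore be assigned to either gene.

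Rps29 was the other gene with a peak in all 4 libraries, and it had the tallest TSS peak of the 84 in 3 of them. The old WT Cre libraries had 0.730 and 0.437 FPM there, against 1.48 and 58.8 for young EC-K4KO, the last a pileup of 1334 fragments with a fold enrichment of 48.4 and the rank of 34 among all peaks of its library. The next tallest member there, Rps20, had 2.03 FPM (chosen after its value was seen). The summits of the 3 tallest lay upstream of Rps29, at -132, -131 and -149 bp, inside Rn7s1 (chr12:69159295-69159594, plus strand), which encodes the 7SL RNA of the signal recognition particle and is known as a Pol III gene. Those peaks covered 296, 300 and 298 of its 300 bases. Only in the second old WT Cre library did the peak lie inside Rps29, from 210 to 517 bp after the TSS, with its summit at 363 bp in the first intron and its end in the second exon. The values at Rps29 in the other libraries thus belong by position to Rn7s1. A copy of the gene, Rn7s2 (chr12:69361182-69361481, minus strand), was identical to Rn7s1 in 300 of 300 bases. Rn7s2 had no peak in the first old WT Cre library and 0.801, 0.625 and 24.8 FPM in the others, so both copies were highest in the second young EC-K4KO library, by a wide margin. A read within identical copies can be placed on either, so the share of each copy cannot be told apart.

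**Figure D3:**
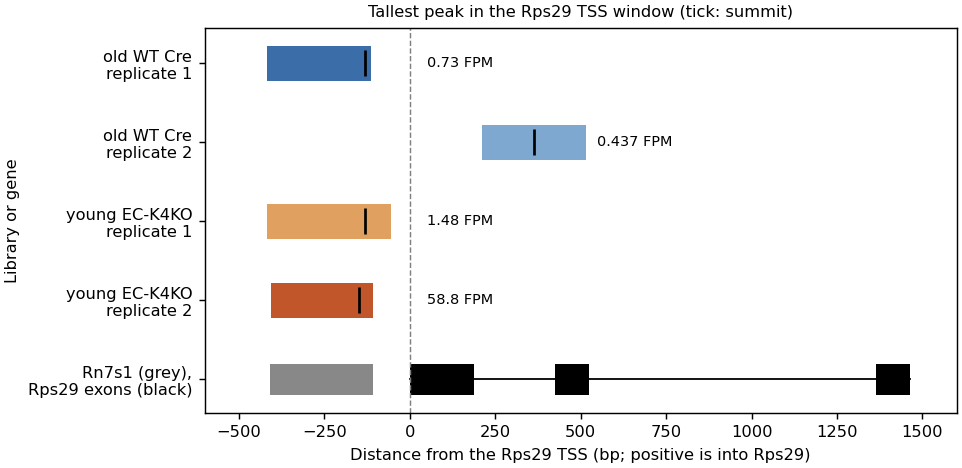
Tallest peak in the Rps29 TSS window in each library (coloured bars, with a tick at the summit and the pileup in FPM beside it), by distance in bp from the Rps29 TSS, over the exons of Rps29 (black) and the Rn7s1 gene (grey). In 3 libraries the peak covers Rn7s1, with 0.730, 1.48 and 58.8 FPM, and in the second old WT Cre library it lies inside Rps29 with 0.437.

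Peak heights at the ribosomal protein genes were set beside those at all coding genes called in the same library. For old WT Cre the medians were 0.319 and 0.473 FPM, equal to the all-gene medians of 0.319 and 0.473. For young EC-K4KO they were 0.483 and 0.925, beside all-gene medians of 0.397 and 0.837. Within the TSS peaks of a library the median member stood at the percentiles 47.9, 44.1, 76.6 and 60.7 by pileup, and the tallest 10% held 2, 1, 2 and 13 members of the 25, 31, 8 and 71 called (18.3% in the last). The members thus stood near or below the middle for old WT Cre and above it for young EC-K4KO, and the difference from other genes was not tested. The median fold enrichment was 3.92, 4.91, 4.87 and 5.96 at the members and 3.94, 5.0, 4.16 and 5.80 at all coding genes. Only heights of called peaks enter these medians, so a library that called weaker peaks lowers its own median. The group means of the median height were 0.396 ± 0.109 (SD, n = 2) and 0.704 ± 0.313 FPM, a difference of 0.307 without overlap of the groups (two-sided exact permutation test, p = 0.33). Without the second young EC-K4KO library it was 0.0861, and without Rps29 it was 0.298, with the groups overlapping (exact permutation p = 0.6667). The groups overlapped in 5 of 11 alternatives that kept all 4 libraries, also at a q of at most 1e-05, with a window of 3000 bp, with lists of equal length and with fragments counted without the 5 tallest summits, so the separation did not hold throughout. With fragments counted in that last way the medians were 0.409, 0.621, 0.510 and 0.952 FPM, and the difference was 0.217. The rise was larger in the old WT Cre libraries, so the FPM scale itself differed between the groups.

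**Figure D4:**
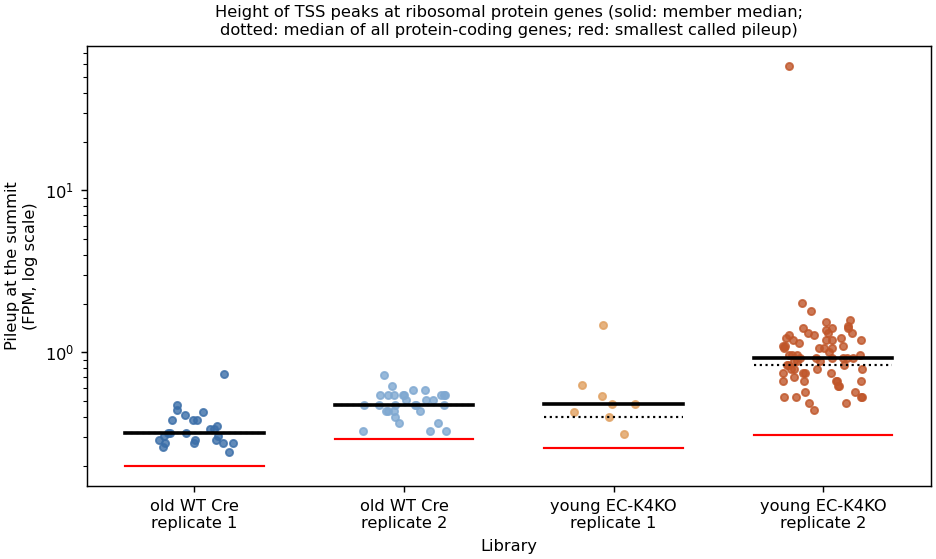
Pileup at the summit of the tallest TSS peak of each called ribosomal protein gene (points; FPM, log axis) by library, with the member median (solid line), the median of all protein-coding genes (dotted) and the smallest pileup called in that library (red). Member medians run from 0.319 to 0.925, and the single point far above the rest is Rps29 at 58.8.

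Summits lay downstream of the nearest TSS in 16 of 25, 21 of 31, 5 of 8 and 46 of 71 member genes, beside 63.8%, 67.5%, 56.2% and 62.4% of all coding genes with a peak. The median position was 151, 120, 80.0 and 67.0 bp downstream in the 4 libraries, beside 137, 130, 53.0 and 96.0 bp over all coding genes with a peak. At a fold enrichment of at least 4 it was upstream in the first library of each group, at -242 and -17.5 bp. Within 300 bp of a TSS lay 10 of 25, 20 of 31, 6 of 8 and 49 of 71 member summits, beside 42.6%, 53.9%, 47.5% and 52.3% over all coding genes. The group means were 136 ± 21.9 (SD, n = 2) and 73.5 ± 9.19 bp, a difference of -62.0 bp without overlap (exact permutation p = 0.33). It was -26.5 bp without Rps29. With only the most upstream TSS of each gene the medians were 190, 196, 211 and 172 bp, and the difference was -1.25 bp. The difference turned to 41.0, 86.5 and 142 bp at a stricter q, at a fold enrichment of at least 4 and with lists of equal length, so no direction can be given.

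**Figure D5:**
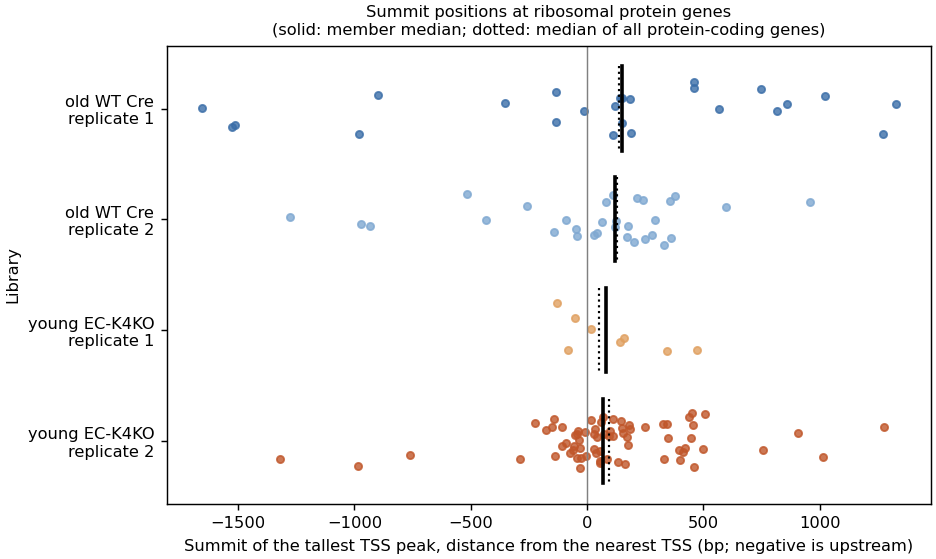
Distance in bp from the nearest TSS (negative is upstream) to the summit of the tallest TSS peak at each called ribosomal protein gene (points), by library, with the member median (solid line) and the median over all protein-coding genes (dotted). Points gather near the TSS in the second young EC-K4KO library, where 49 of 71 lie within 300 bp, and spread over the whole window in the first old WT Cre library, where 10 of 25 do.

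By annotation, the summits in the first old WT Cre library fell upstream of the gene in 8, in an exon in 5 and in an intron in 12 of the 25 genes. The counts were 9, 7 and 15 in the second old WT Cre library, 1, 4 and 3 in the first young EC-K4KO library and 14, 23 and 34 in the second young EC-K4KO library. The intron class made 48.0%, 48.4%, 37.5% and 47.9% of the members called in the 4 libraries, beside 39.2%, 35.5%, 33.4% and 34.0% for all coding genes. The exon class held 5 of 25, 7 of 31 (22.6%), 4 of 8 and 23 of 71 (32.4%), beside 32.9%, 39.7%, 31.8% and 37.0%, and the upstream class 32.0%, 29.0%, 12.5% and 19.7%, beside 27.5%, 24.5%, 34.2% and 28.7%. The exon share was thus below that of all coding genes in 3 libraries and above it in the first young EC-K4KO library, where 8 genes were called, and these differences were not tested. In the 1500 bp after the 3′ end of the gene, 4, 1, 0 and 16 of the 84 had a peak, beside 5.88%, 2.95%, 1.95% and 17.6% of all coding genes. The TSS of another annotated gene was nearer to the summit than the member's own in 5 of 25, 4 of 31, 2 of 8 and 10 of 71 genes (beside 13.5%, 15.2%, 14.8% and 12.7% of all coding genes called). These included Mgat2 beside Rpl36al, Clhc1 beside Rps27a in the first young EC-K4KO library, Lias beside Rpl9 in the second old WT Cre library and snoRNA genes beside Rpl7a and Rpl13 in the second young EC-K4KO library (chosen after their values were seen).

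As hosts of snoRNAs, 30 of the 84 (35.7%, against 1.18% of all coding genes) held 58 annotated snoRNA genes on their own strand. A TSS peak was called at 6, 8, 2 and 24 of the 30 hosts and at 19, 23, 6 and 47 of the other 54 members. Among all coding genes, 32.8%, 35.1%, 16.6% and 79.9% of hosts and 25.5%, 24.3%, 10.6% and 67.4% of the other genes had one, and no difference between hosts and other genes was tested. Of the 26 members with CCGGAAG in the promoter window, 12, 9, 2 and 23 had a TSS peak, and of the 38 without it, 8, 16, 2 and 33. Over all coding genes with a window the shares called were 33.1%, 34.0%, 13.1% and 82.5% with these letters and 24.5%, 23.5%, 10.4% and 66.5% without them. Of the 30 with a pyrimidine run 9, 10, 2 and 29 had one, and of the 34 without, 11, 15, 2 and 27, beside 27.3%, 26.5%, 11.1% and 71.3% of all coding genes with a run and 25.3%, 24.5%, 10.7% and 68.0% of those without. No difference by these letters was tested.

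Other gene lists of protein synthesis and turnover were counted in the same way. The 78 mitochondrial ribosomal protein genes had TSS peaks in 24.4%, 30.8%, 8.97% and 76.9%, the 39 proteasome subunit genes in 25.6%, 41.0%, 5.13% and 89.7%, and the 36 ribosome biogenesis factors in 41.7%, 38.9%, 19.4% and 75.0%. Of the 30 translation factor and other TOP genes, 11, 12, 6 and 26 had one. The 1093 olfactory receptor genes, silent in ECs, had 7.41%, 2.65%, 5.95% and 25.1%. In the first young EC-K4KO library the ribosomal protein genes (9.52%) and the olfactory receptor genes (5.95%) were thus near each other, and the latter value lay within the interval of the former. Relative to the length-standardised share, the cytosolic list stood at 1.60, 2.35, 1.24 and 1.54 and the mitochondrial list at 1.16, 1.63, 1.05 and 1.27. The proteasome list stood at 1.08, 1.86, 0.538 and 1.37, the biogenesis factors at 1.75, 1.76, 2.0 and 1.15, and the translation factor and other TOP genes at 1.66, 1.99, 2.26 and 1.38. The cytosolic list was thus below the last pair of lists in the first library of each group and above them in the second. The olfactory receptor genes stood at 0.369, 0.147, 0.780 and 0.417. The differences between lists were not tested.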

How the data were processed

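Pol II ChIP-seq peak lists of 4 libraries were used. According to the methods, the authors trimmed the reads with TrimGalore, used Bowtie2 for alignment to mm10, and took out PCR duplicates (Picard, SAMtools). MACS2 (2.2.7.1 per the file headers) then gave peaks for each library at q of 0.01, without a control library. The deposited tables give for each peak a pileup (coverage signal in fragments at the summit), a fold enrichment over local background, and both p-value and q-value as −log10. The narrow peak and summit files hold the same peaks and were not used. Depth was the fragment count of the file header, and it sets how small a pileup could be called.

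TSSs came from GENCODE M21 basic (mm10). Pileups were scaled to 1000000 fragments of the library, and the tallest peak overlapping the window of 1500 bp stood for the gene. Shares of other coding genes were standardised to the members' lengths in 10 length classes. Groups came from the labels, and group means were compared by two-sided exact permutation over libraries. Python 3.11.15, numpy 2.4.6, pandas 2.3.3, scipy 1.17.1 and matplotlib 3.10.9 were used. In a test on simulated data, all 2000 peaks planted inside the TSS windows of 21951 genes were recovered. This checked the overlap code alone, since peak calling was not simulated.

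The members, the lists and the tests were chosen with earlier results of these data known. Members named were those called in all 4 libraries, in both libraries of 1 group alone, or in none, the tallest in each library, the paralogs, and Rplp0, Rplp1, Rplp2, Rpsa, Rpl3, Rpl5, Rpl11, Rps3, Rps6 and Rps27a for their known roles. Any other member named was chosen after its values were seen. Alternatives were windows of 500 and 3000 bp, q of at most 1e-05, fold of at least 4, lists of equal length, the most upstream TSS, leaving out paralogs or members with another TSS in the window, other scales and length classes, leaving out each library and a replicate block. Leaving out Rps29, and leaving out libraries for the counts of one-group genes, were chosen after seeing the data. Promoter sequences of 20 members were not used here. A few members are not reported here by name, nor drawn in the plot by gene, and are kept in the counts.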

Additional observations from a re-analysis of the deposited data

How the results depend on the processing

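Of the differences between group means, the share of ribosomal protein genes with a TSS peak (young EC-K4KO minus old WT Cre) ranged from -23.8 to 51.2 percentage points when a library was left out, the median height from 0.0861 to 0.528 FPM, the ratio to the length-standardised share from -0.957 to -0.209, and the median summit position from -77.5 to -46.5 bp. The share turned, to -23.8 points, without the second young EC-K4KO library. The ratio turned to 0.0476 at q of at most 1e-05. The summit position turned to 41.0 bp at that q, to 86.5 bp at a fold enrichment of at least 4 and to 142 bp with lists of equal length. With only the most upstream TSS its difference was -1.25 bp. The cause was not tested. The count in old WT Cre alone was 0 with windows of 500 and of 3000 bp (0.656% and 0.711% of all coding genes) and 1 to 12 with a library left out (0.888% to 7.78%), and the count in young EC-K4KO alone was 1 at q of at most 1e-05 (1.23%) and 3 to 34 with a library left out (4.05% to 33.7%). Over 12 settings that bear on the ratio, it exceeded 1 in all 12 in each library except the first young EC-K4KO library, where it did in 10 (0.664 to 2.40). Whether the replicate numbers pair the libraries could not be checked with 2 numbers and no label that says so, and with them as a block the differences were the same, 13.7 points (exact permutation p = 1), 0.307 FPM, -0.583 and -62.0 bp, with p no lower than 0.5. With 2 libraries a group no test could pass a threshold of 0.05, so an unchanged side of it says nothing of stability.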

Other observations

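Processed pseudogenes of the ribosomal protein genes are numerous in the mouse genome, as intronless copies of their mRNAs. Of 294 pseudogenes named for a member (median length 460 bp), 39, 18, 19 and 98 held a peak in the old WT Cre libraries and the young EC-K4KO libraries. These shares of 13.3%, 6.12%, 6.46% and 33.3% stand beside 8.80%, 4.61%, 5.63% and 23.2% of 9940 processed pseudogenes of all genes (median length 552 bp). The pseudogenes of the ribosomal protein genes thus had a larger share with a peak than processed pseudogenes at large in each library, and the difference was not tested. Reads that match both a gene and its copies can be placed on either.

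Close relatives that the naming rule leaves out were counted in the same way. Fau, the ubiquitin-like fusion gene of Rps30, had a TSS peak in the second young EC-K4KO library alone (0.881 FPM). Rack1, a ribosome-bound scaffold, had 0.291 in the second old WT Cre library and 1.72 in the second young EC-K4KO library. The elongation factor genes Eef1a1 and Eef2 were called in the second young EC-K4KO library alone, at 0.793 and 1.63. Of 2 widely expressed genes, the glycolytic Gapdh had no TSS peak in any library, and the actin gene Actb had 0.596 and 1.63 FPM in the young EC-K4KO libraries and none for old WT Cre. The 7SK RNA gene Rn7sk, also a Pol III gene, had 0.484 in the second young EC-K4KO library alone.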
